A study of Mus musculus with 16 samples.

Results

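The genes described here are the CDK inhibitors Cdkn1a, Cdkn1b, Cdkn1c, Cdkn2b and Cdkn2c and the G1 cyclins Ccnd1, Ccnd2, Ccnd3, Ccne1 and Ccne2, 10 of the 27179 genes in the deposited table. They were chosen by name, as regulators of the G1 phase of the cell cycle, with earlier results of these data known. All 10 passed the filter on low values (10 normalised reads in at least 4 libraries) in every comparison of media. Cyclins of the D type bind the kinases Cdk4 and Cdk6 and cyclins of the E type bind Cdk2, and these kinases phosphorylate the retinoblastoma protein, which frees E2F factors to switch on genes of DNA replication. INK4 inhibitors such as Cdkn2b and Cdkn2c block Cdk4 and Cdk6, while CIP/KIP inhibitors (Cdkn1a, Cdkn1b and Cdkn1c) bind complexes of cyclin and kinase, chiefly those of Cdk2. In epithelial cells TGF-beta is known for raising Cdkn2b and Cdkn1a, and EGF, through ERK, for raising cyclin D1.

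RNA was sequenced from 4 triple-mutant tumour organoid lines of the mouse (MTOs), in 16 libraries. The lines were kept as epithelial cultures in drops of basement membrane extract. The AKP lines are MTO54 and MTO220, whose name is usually read, though the labels do not spell it out, as including lesions of Apc and Trp53, with Tgfbr2 wild type by label. The APT lines are MTO100 and MTO101, read in the same way as lacking Apc, Trp53 and Tgfbr2 function. Full medium contained 3 added factors of interest: galunisertib at 1 µM, which blocks the kinase of the type I TGF-beta receptor, EGF at 50 ng/ml, and noggin, which binds BMPs, at 100 ng/ml. AKP lines were also grown with TGF-beta1 and without galunisertib (TGF-beta medium), and APT lines without EGF, so that each genotype was slowed in its own way. Each combination of line and medium held 2 libraries, from consecutive passages in separate pools. Full-medium cultures were collected on day 4 and the others on day 7, and an effect of the medium cannot be told apart from one of the later day. Each genotype is represented by 2 lines, and p-values measure the spread between these libraries, whose pools are passages of a line and not separate animals.

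Libraries held 17056053 to 22251986 reads on genes, and pools of the same line and medium correlated across 15087 genes at Pearson r of 0.974 to 0.992. The unit is the normalised read, a read count over the library's size factor as the authors computed it, and pool 1 is given before pool 2 throughout. Trp53 RNA lay at 91.2 to 252 normalised reads in MTO54, MTO100 and MTO101 but at 1916 to 4207 in the libraries labelled MTO220, so results on MTO220 rest on its label. Tgfbr2 RNA lay at 2573 to 3353 in MTO100, inside the 2349 to 5315 of the AKP lines, and at 877 to 1616 in MTO101, and a gene's RNA level does not show whether its product works, so the APT genotype rests on the labels too. The MTO54 full-medium library of pool 2 stood apart from the other full-medium AKP libraries in Cdkn1a, Cdkn1c and Ccnd3, and values without it are given where leaving it out changed a call. Mitochondrial genes took 1.39% to 1.68% of reads in AKP full medium, 1.91% to 2.41% in TGF-beta medium, 1.74% to 2.09% in APT full medium and 2.62% to 4.05% without EGF. RNA was at 423 to 2344 ng/µl in AKP full medium, 87.8 to 1536 in TGF-beta medium, 168 to 1586 in APT full medium and 13.2 to 354 without EGF. The part of these values in the results was not tested.

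Promoter windows of the genes are shown for the inhibitors that differed most from full medium in TGF-beta medium and for the E-type cyclin whose responses differed between the 2 comparisons. RefSeq's promoter table (GRCm38.p6) held windows of 250 bases before a transcription start for 6 of the 10 genes. Windows are printed 5′ to 3′ on the gene's strand up to the first annotated exon base, with matches to the SMAD core CAGAC, the GC box GGGCGG, the E2F sites TTTGGCGC and TTTCCCGC, or a p53-type pair (CATG, any 6 bases, CATG) in capitals, on either strand. The outer start of Cdkn1a (chr17:29090729-29090975, plus strand) comes first, then its inner start (chr17:29093519-29093768, plus strand), Cdkn2b (chr4:89311040-89311282, minus strand) and Ccne1 (chr7:38107535-38107740, minus strand).
Cdkn1a outer start: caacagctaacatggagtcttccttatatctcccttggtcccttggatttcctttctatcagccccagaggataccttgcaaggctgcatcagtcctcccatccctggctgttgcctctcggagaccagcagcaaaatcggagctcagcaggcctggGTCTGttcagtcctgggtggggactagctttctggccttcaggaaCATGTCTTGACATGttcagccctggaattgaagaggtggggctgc
Cdkn1a inner start: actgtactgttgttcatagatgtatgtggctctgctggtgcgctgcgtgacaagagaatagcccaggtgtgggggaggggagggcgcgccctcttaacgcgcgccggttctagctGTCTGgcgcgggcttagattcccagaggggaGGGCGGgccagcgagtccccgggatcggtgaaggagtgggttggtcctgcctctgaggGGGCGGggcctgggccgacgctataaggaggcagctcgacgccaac
Cdkn2b: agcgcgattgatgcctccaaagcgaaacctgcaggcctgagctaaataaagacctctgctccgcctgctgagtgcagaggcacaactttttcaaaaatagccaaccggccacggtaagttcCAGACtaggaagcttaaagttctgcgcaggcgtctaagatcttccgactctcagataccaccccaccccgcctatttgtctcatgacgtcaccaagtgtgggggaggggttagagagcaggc
Ccne1: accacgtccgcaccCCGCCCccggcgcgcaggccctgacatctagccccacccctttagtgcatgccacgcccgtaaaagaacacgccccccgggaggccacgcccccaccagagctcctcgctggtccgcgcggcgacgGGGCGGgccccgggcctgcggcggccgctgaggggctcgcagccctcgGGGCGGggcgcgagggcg
The outer Cdkn1a window held 1 SMAD core, with its 5′ end 93 bases before the start, and 1 p53-type pair 48 bases before it, the motif added after the sequence was seen. The inner Cdkn1a window held 1 SMAD core, 135 bases before its start, and 2 GC boxes, and the Cdkn2b window held 1 SMAD core, 129 bases before the start. The Ccne1 window held 3 GC boxes and none of the other motifs. Of all 32851 windows in the table, 42.2% held a SMAD core, 32.7% a GC box, 1.30% an E2F site and 0.490% the p53-type pair, so the first 2 motifs are common and a match describes only the letters present.

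TGF-beta medium raised 3 of the 5 inhibitors and 1 of the 5 cyclins in the AKP lines. Cdkn1a, Cdkn2b, Cdkn1c and Ccnd1 rose, Cdkn2c, Ccnd3, Cdkn1b and Ccne2 fell, and Ccnd2 and Ccne1 were not called. Limma-trend with Benjamini-Hochberg adjustment over all genes called 8 of the 10 at an adjusted p under 0.05, where it called 52.6% of 13725 tested genes, 27.0% higher and 25.7% lower. The libraries of the 2 media did not overlap for the same 8 genes, 4 above and 4 below full medium, against 38.3% of tested genes (20.0% above, 18.3% below). The 10 genes had a median log2 change of 0.12, beside 0.02 for all tested genes.

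EGF withdrawal in the APT lines lowered all 5 cyclins and the inhibitor Cdkn2c, and raised Cdkn2b and Cdkn1c. Cdkn1a and Cdkn1b were not called. The 8 called genes stood beside 48.5% of 14373 tested genes, of which 26.8% were higher and 21.7% lower, and their median change over all 10 genes was -1.09, beside 0.08 for all tested genes. Libraries of the 2 media did not overlap for 7 genes, Cdkn2b above and the 5 cyclins and Cdkn2c below, against 35.9% of tested genes (19.0% above, 16.9% below). In bulk RNA, fewer cells of a kind and less RNA per cell cannot be told apart, here as in TGF-beta medium.

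**Figure D1:**
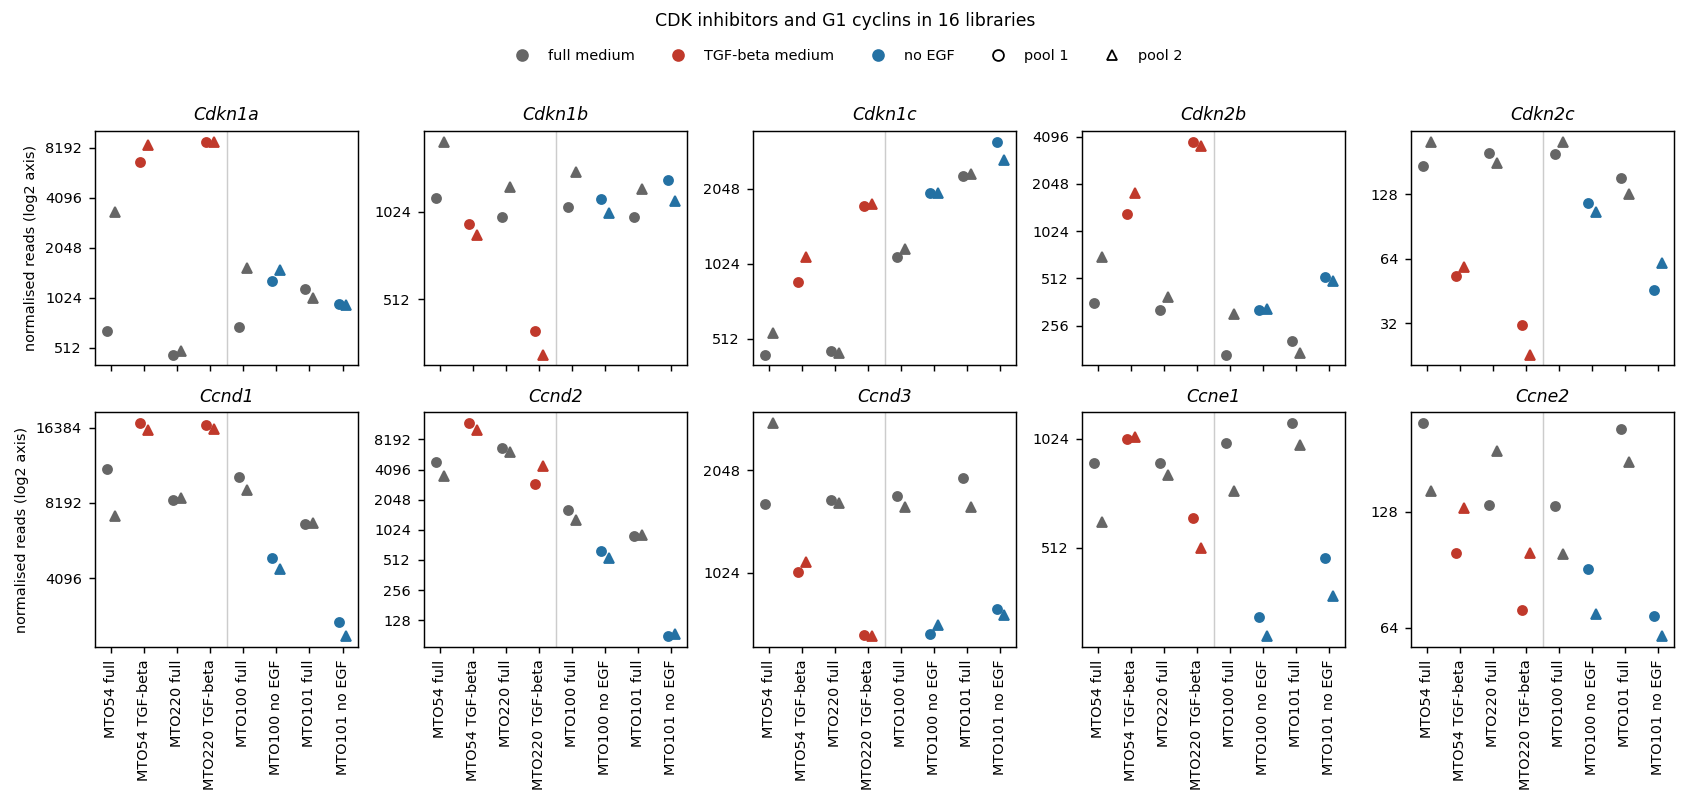
Normalised reads of each gene (log2 axis, scale set per gene) in the 16 libraries, with full medium in grey, TGF-beta medium in red and no EGF in blue, circles for pool 1 and triangles for pool 2; the vertical line parts AKP from APT lines. Cdkn1a and Ccnd1 stand highest in the 4 red libraries, and all 5 cyclins lie lower in the 4 blue libraries than in the APT libraries in full medium.

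Among the CIP/KIP inhibitors, Cdkn1a (p21; Entrez gene 12575, chr17:29090979-29100722, GRCm38.p6, plus strand) rose most. In MTO54 it stood at 649 and 3358 normalised reads in full medium and at 6726 and 8469 in TGF-beta medium. In MTO220 it stood at 467 and 491 in full medium and at 8893 and 8852 in TGF-beta medium. All 4 TGF-beta libraries were above all 4 full-medium libraries, and the pool 2 library of MTO54 in full medium lay far above the other full-medium libraries. The mean went from 1241 ± 1414 to 8235 ± 1024 (SD, n = 4), a log2 change of 3.28 ± 0.48 (SE, limma-trend adjusted p = 0.000356), which is 9.72-fold. Without the pool 2 full-medium library of MTO54 the log2 change was 3.94 (adjusted p = 3.00e-06), and with MTO54 fitted alone it was 2.35 and not called (adjusted p = 0.272).

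Without EGF, Cdkn1a showed no such rise. It stood at 682 and 1557 normalised reads in full medium and at 1301 and 1513 without EGF in MTO100. MTO101 gave 1156 and 1021 in full medium and 943 and 927 without EGF. The 2 media overlapped, and only 1 of 4 pairs of line and pool was higher without EGF. The log2 change was 0.11 with a 95% interval of -0.43 to 0.65 (limma-trend adjusted p = 0.723), and it was -0.22 in MTO101 alone. Annotated exon bases of Cdkn1a overlap an uncharacterised transcript on the opposite strand over 7.68% of their length, and the libraries do not mark strand.

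Cdkn1b (p27; Entrez gene 12576, chr6:134920401-134925525, plus strand), known mostly for regulation after transcription, moved the other way. It lay at 984 to 1791 normalised reads in AKP full medium and at 329 to 932 in TGF-beta medium, without overlap. The log2 change was -1.15 ± 0.23 (SE, adjusted p = 0.00205), with MTO54 at -0.68 and MTO220 at -1.62. Fitted in MTO54 alone, or with pools averaged per line, the fall was not called (adjusted p = 0.0751 and 0.0582). In the APT lines it lay at 983 to 1409 in full medium and at 1015 to 1320 without EGF, inside the full-medium range, and the log2 change was -0.03 (95% interval -0.40 to 0.34, adjusted p = 0.909). Scaled to library totals, that change was 0.20, also not called.

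Cdkn1c (p57; Entrez gene 12577, chr7:143458339-143461059, minus strand), an imprinted inhibitor, rose in both media. MTO54 held 441 and 541 normalised reads in full medium and 862 and 1090.5 in TGF-beta medium, and MTO220 held 458 and 448 against 1748 and 1779. The TGF-beta libraries stood above the full-medium ones in both lines, more so in MTO220, and the log2 change was 1.47 ± 0.21 (SE, adjusted p = 0.00028). MTO100 held 1086 and 1174 in full medium and 1964 and 1970.5 without EGF, and MTO101 held 2311 and 2337 against 3162 and 2660.3. Both lines were higher without EGF in both pools, yet the media overlapped because MTO101 in full medium stood above MTO100 without EGF. The log2 change was 0.56 ± 0.16 (SE, adjusted p = 0.0127), and it was not called in MTO101 alone (0.32, adjusted p = 0.28), without a term for the line (adjusted p = 0.172), with pools averaged (adjusted p = 0.0919) or without the pool 1 full-medium library of MTO100 (adjusted p = 0.0525). An antisense gene model covers 30.7% of the exon bases of Cdkn1c.

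Cdkn2b (p15; Entrez gene 12579, chr4:89306289-89311032, minus strand) was the INK4 gene that rose in both media. In MTO54 it held 357 and 698 normalised reads in full medium and 1311 and 1803 in TGF-beta medium. MTO220 gave 323 and 389.9 in full medium and 3808 and 3566 in TGF-beta medium. Every TGF-beta library stood above every full-medium library, and MTO220 reached the highest values. The mean went from 442 ± 173 to 2622 ± 1250 (SD, n = 4). That is 5.64-fold on the fitted scale, or 2.50 ± 0.34 in log2 (SE, limma-trend adjusted p = 0.00024). Without EGF, MTO100 went from 168 and 304 to 321 and 325, and MTO101 from 204 and 173 to 521 and 494. All 4 libraries without EGF were above all 4 in full medium, though in MTO100 the pool 2 pair was close. That log2 change was 0.97 ± 0.25 (SE, adjusted p = 0.00749). It was not called in MTO100 alone (0.52, adjusted p = 0.192) or with pools averaged (adjusted p = 0.0522).

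Cdkn2c (p18; Entrez gene 12580, chr4:109660876-109666756, minus strand), the other INK4 inhibitor described here, fell in both media. AKP libraries held 173 to 225 normalised reads in full medium and 22.8 to 58.7 in TGF-beta medium, a log2 change of -2.29 ± 0.27 (SE, adjusted p = 8.23e-05). APT libraries held 128 to 225 in full medium and 45.5 to 116 without EGF, a log2 change of -1.15 ± 0.22 (adjusted p = 0.00156). The media did not overlap in either genotype, and all 4 pairs fell in each. Per kilobase of exon, Cdkn2c was 17.2% of the summed level of Cdkn2b and Cdkn2c in MTO54 full medium (14.3% and 20.0% in the pools) and 1.86% in TGF-beta medium. In MTO220 its share went from 21.8% to 0.376%, in MTO100 from 32.8% to 15.1% and in MTO101 from 27.8% to 5.16%.

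The summed level of the 3 CIP/KIP inhibitors per kilobase of exon stood at 1127 (649 and 1604) in MTO54 full medium and 2813 (2521 and 3106) in TGF-beta medium, and at 602 and 3442 in MTO220. Cdkn1a made up 43.5% of it in MTO54 full medium (28.1% and 58.9%) and 75.9% in TGF-beta medium, and 22.4% and 72.6% in MTO220. Without EGF the sum moved from 1141 to 1596 in MTO100 and from 1689 to 1958 in MTO101, and Cdkn1c was its largest part in all 4 of those groups, at 49.5% to 72.9%. These are sums of levels, with no test.

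**Figure D2:**
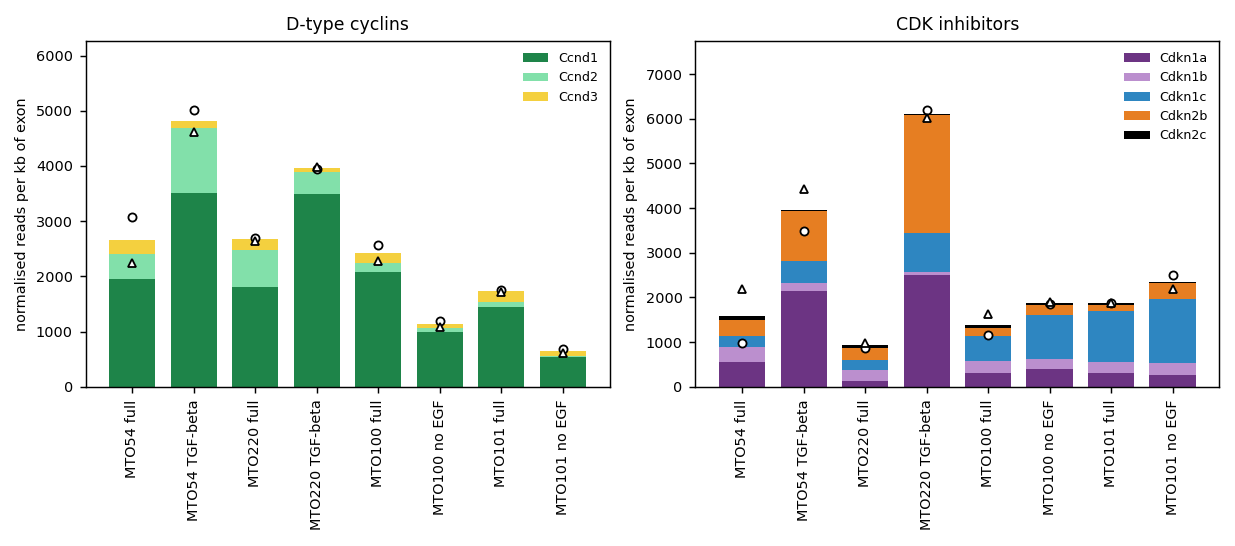
Mean normalised reads per kilobase of exon of the D-type cyclins (left) and the CDK inhibitors (right) for each line and medium, stacked by gene, with the sum in pool 1 as a circle and in pool 2 as a triangle. The D-type sum is higher in TGF-beta medium than in full medium in both AKP lines and lower without EGF in both APT lines, while the inhibitor sum reaches its highest values in the TGF-beta libraries.

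Of the D-type cyclins, Ccnd1 (Entrez gene 12443, chr7:144929931-144939831, minus strand) moved in opposite directions in the 2 comparisons. MTO54 held 11200 and 7231 normalised reads in full medium and 17082 and 16056 in TGF-beta medium. MTO220 held 8428 and 8535 against 16727 and 16121. The TGF-beta libraries lay close together and above every full-medium library. The log2 change was 0.92 ± 0.16 (SE, adjusted p = 0.00102), 1.89-fold. MTO100 held 10345 and 9258 in full medium and 4945 and 4464 without EGF, and MTO101 held 6766 and 6801 against 2743 and 2398. Without EGF each library lay below each full-medium library, with a log2 change of -1.23 ± 0.16 (SE, adjusted p = 0.000147). The opposite-strand gene LTO1 shares 23.4% of the exon bases of Ccnd1 and rose in both comparisons (1.21 and 1.15), at a mean of 269 and 282 normalised reads where Ccnd1 had 12672 and 5965.

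Ccnd2 (Entrez gene 12444, chr6:127125162-127152188, minus strand), a D-type cyclin known as a target of MYC in other cells, differed between the lines of a genotype. In MTO54 it held 4882 and 3572 normalised reads in full medium and 11943 and 10137 in TGF-beta medium. In MTO220 it held 6722 and 6104 in full medium and 2939 and 4496 in TGF-beta medium. The direction was up in both pools of MTO54 and down in both pools of MTO220, and the joint log2 change of 0.29 (95% interval -0.56 to 1.14, adjusted p = 0.547) was not called. Fitted alone, Ccnd2 rose in MTO54 (1.40, adjusted p = 0.000384) and fell in MTO220 (-0.82, adjusted p = 0.0175). Without the pool 2 full-medium library of MTO54 it was -0.021. Without EGF, Ccnd2 went from 1614 and 1286 to 629.8 and 534 in MTO100 and from 889 and 903 to 88.9 and 94.1 in MTO101. All 4 pairs fell, with a log2 change of -2.29 ± 0.33 (SE, adjusted p = 0.000283), and MTO101 reached the lowest values. Antisense gene models share 3.95% and 3.91% of the exon bases of Ccnd2.

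Ccnd3 (Entrez gene 12445, chr17:47505051-47599689, plus strand) fell in both media by like amounts. It lay at 1632 to 2824 normalised reads in AKP full medium and at 667 to 1103 in TGF-beta medium, a log2 change of -1.16 ± 0.18 (SE, adjusted p = 0.000458). In the APT lines it lay at 1599 to 1940.2 in full medium and at 677 to 802 without EGF, a log2 change of -1.21 ± 0.14 (adjusted p = 8.88e-05). Neither genotype overlapped between its media, and each of the 8 pairs fell. Its opposite-strand neighbour Bysl, which shares 4.11% of the exon bases of Ccnd3, fell as well (-0.80 and -1.21).

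Per kilobase of exon, Ccnd1 was the largest of the D-type cyclins in every group, at 67.4% to 88.1% of their sum. The share of Ccnd2 went from 16.9% to 24.3% in MTO54 with TGF-beta and from 25.5% to 9.97% in MTO220. In MTO100 it was 6.34% in full medium and 5.42% without EGF, and in MTO101 5.48% and 1.51%. The sum went from 2660.0 to 4814 in MTO54 and from 2672 to 3959 in MTO220 with TGF-beta, and from 2424 to 1140.4 in MTO100 and from 1737 to 645 in MTO101 without EGF.

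The E-type cyclin Ccne1 (Entrez gene 12447, chr7:38097984-38107490, minus strand), whose product drives Cdk2 at the start of S phase, fell without EGF. MTO100 held 994 and 733 normalised reads in full medium and 330.5 and 292 without EGF, and MTO101 held 1131 and 984 against 480.4 and 376. Each library without EGF lay below each full-medium library, and the log2 change was -1.38 ± 0.17 (SE, adjusted p = 0.000113). With TGF-beta, MTO54 went from 877 and 602 to 1020.4 and 1036, and MTO220 from 878 and 813 to 619 and 511. The lines went apart, both pools higher in MTO54 and both lower in MTO220, and the joint log2 change was -0.04 (95% interval -0.56 to 0.47, adjusted p = 0.888). Fitted alone, MTO220 fell by 0.59 on the log2 scale (adjusted p = 0.0182) and MTO54 gave 0.50 (adjusted p = 0.192). Scaled to library totals, the joint change was 0.078.

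Ccne2 (Entrez gene 12448, chr4:11190433-11204779, plus strand), its less abundant relative, was at 133 to 217 normalised reads in AKP full medium and 71.1 to 131 in TGF-beta medium. In the APT lines it was at 99.6 to 209.7 in full medium and 60.9 to 90.7 without EGF. The media did not overlap in either genotype, though only narrowly. The log2 changes were -0.76 ± 0.24 with TGF-beta (SE, adjusted p = 0.0202) and -1.03 ± 0.27 without EGF (adjusted p = 0.00831). The first was not called with library totals (adjusted p = 0.0529), with pools averaged (adjusted p = 0.167), in MTO54 alone (adjusted p = 0.196) or without 1 of 4 libraries (pool 1 of MTO54 in either medium, pool 1 of MTO220 in TGF-beta medium or pool 2 of MTO220 in full medium, adjusted p from 0.056 to 0.0757). The second was not called in MTO100 alone (adjusted p = 0.255) or with pools averaged (adjusted p = 0.0802). Ints8, on the opposite strand, shares 17.4% of the exon bases and was not called in either comparison (-0.01 and -0.41). Per kilobase of exon, Ccne1 made up 83.7% to 92.1% of the summed E-type level in every group, and that sum was 329.7 and 419 in the 2 media in MTO54, 363 and 237 in MTO220, 358 and 139.8 in MTO100 and 452 and 179 in MTO101, full medium first.

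**Figure D3:**
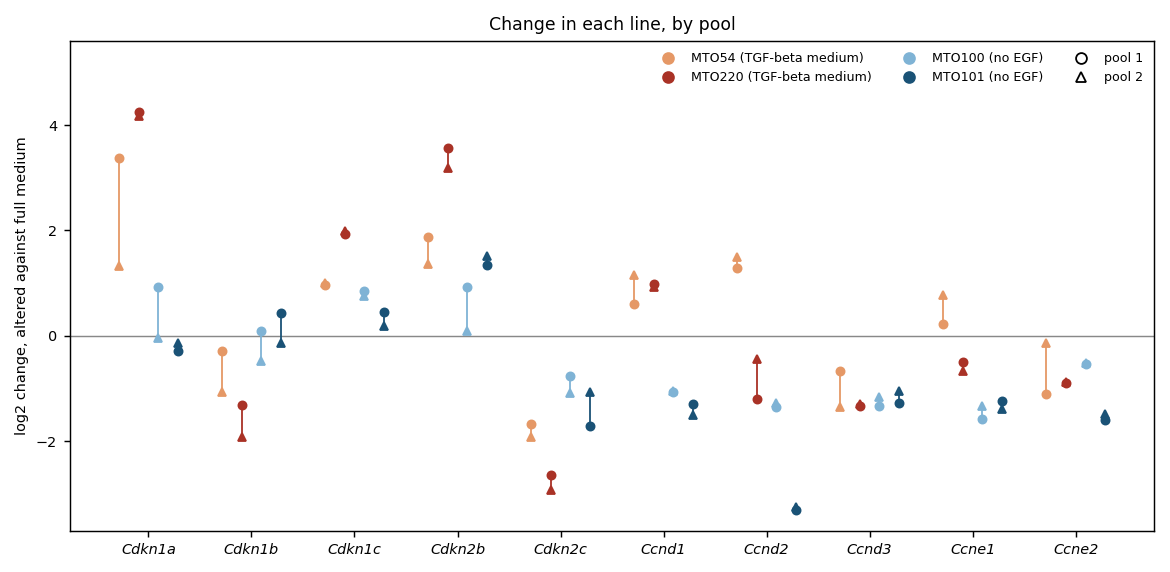
Log2 change of each gene against full medium in each line, with pool 1 as circles and pool 2 as triangles joined by a line; orange and red are the AKP lines in TGF-beta medium, light and dark blue the APT lines without EGF. Ccnd2 lies above 0 in MTO54 and below 0 in MTO220, and Cdkn1a in MTO54 has the widest gap between its pools, at 3.37 and 1.33.

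The 2 ways of slowing growth were then compared in a single model of all 16 libraries, as the TGF-beta response minus the EGF-withdrawal response. The 2 responses share no library, but genotype and medium cannot be told apart in their difference. Pools of a line entered as separate replicates, though the genotype belongs to the line, and the difference was not fitted on line means. Its p-values therefore do not measure the spread between lines. Of the 10 genes 8 differed, where 22.2% of 15087 tested genes did, 10.5% with the higher value in the TGF-beta response and 11.7% with the lower. Ccnd1 had the smallest p, with a difference of 2.15 ± 0.21 (SE, adjusted p = 5.05e-06). Behind it came Cdkn1a at 3.17 ± 0.62 (adjusted p = 0.00167), Ccne1 at 1.34 ± 0.30 (adjusted p = 0.00401) and Ccnd2 at 2.58 ± 0.57 (adjusted p = 0.00425). The responses of Ccnd2 lay far apart within each genotype, at 1.40 in MTO54 and -0.82 in MTO220, and at -1.31 in MTO100 and -3.28 in MTO101. Cdkn1b differed in the other direction, by -1.12 ± 0.29 (adjusted p = 0.0117).

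For the remaining inhibitors the responses shared a direction and differed in size. Cdkn2b differed by 1.52 ± 0.46 (adjusted p = 0.0272), Cdkn1c by 0.91 ± 0.26 (adjusted p = 0.0192) and Cdkn2c by -1.14 ± 0.33 (SE, adjusted p = 0.0229). With the pool of each line as a replicate block, 5 of the 10 genes were called, and these 3 were not (adjusted p = 0.0545, 0.0501 and 0.0574). The call of Cdkn2b was also lost without any 1 of 7 libraries, that of Cdkn2c without any 1 of 4 and that of Cdkn1c without any 1 of 2, with adjusted p between 0.0516 and 0.0694. Ccnd3 and Ccne2 were not called: their differences were 0.05 (95% interval -0.42 to 0.51) and 0.28 (95% interval -0.48 to 1.03), which leaves room for differences of those sizes. Scaling to library totals turned the sign of the Ccnd3 difference, to -0.064.

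**Figure D4:**
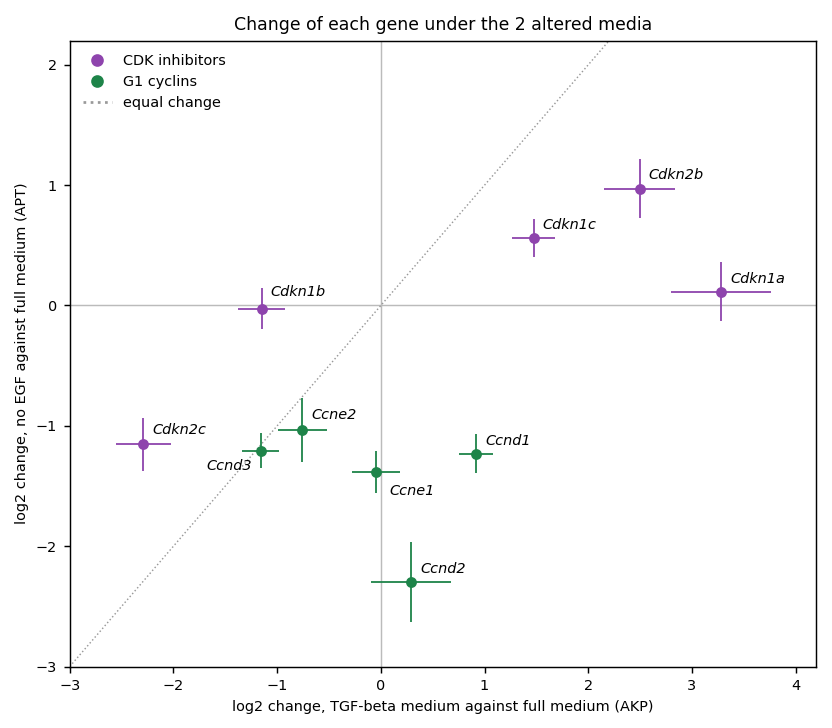
Log2 change without EGF in the APT lines (vertical) against log2 change in TGF-beta medium in the AKP lines (horizontal) for each gene, with standard errors as bars; inhibitors are purple, cyclins green, and the dotted line marks equal change. Ccnd3 lies next to the line, Cdkn1a and Ccnd1 lie far to its right, and Cdkn1b and Cdkn2c lie to its left.

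Lines of a genotype were compared by the interaction of line and medium, which rests on 2 libraries per line and medium. Genes not called are not shown to respond alike in the lines. The TGF-beta response of Cdkn2b was larger in MTO220 (log2 change 3.37) than in MTO54 (1.62), an interaction of 1.75 ± 0.42 (SE, limma-trend adjusted p = 0.0276), and that of Ccnd2 was lower in MTO220 (-0.82) than in MTO54 (1.40), an interaction of -2.21 ± 0.34 (adjusted p = 0.00358). These were 2 called genes of 10, where 8.20% of tested genes were called, 5.49% higher and 2.72% lower in MTO220. Closest to the threshold among those not called were Ccne1 (-1.09, adjusted p = 0.0571) and Cdkn1c (0.97, adjusted p = 0.0589). The Cdkn2b interaction was lost without any 1 of 4 libraries, pool 1 of MTO54 in TGF-beta medium, pool 1 of MTO220 in full medium or either MTO220 library in TGF-beta medium, with adjusted p from 0.0857 to 0.115. Cdkn1a responded by 2.35 in MTO54 and 4.21 in MTO220, an interaction of 1.86 ± 0.81 that was not called (adjusted p = 0.208). Without the pool 1 full-medium library of MTO54 it was 3.04 and called (adjusted p = 0.000374), and without the pool 2 library it was 0.67 (adjusted p = 0.138), so that value rests on which MTO54 full-medium library is used. Without the pool 2 library the Cdkn1b interaction was called as well (-1.26, adjusted p = 0.0302), where with all libraries it was -0.94 (adjusted p = 0.133). Without pool 1, 2384 genes were called in place of 1126, and 5 of the 10 genes, with Cdkn1a, Cdkn1c and Ccne1 added.

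Between the APT lines, Ccnd2 was the single member whose response differed, where 2.34% of genes did, 1.09% higher and 1.26% lower in MTO101. It fell by 1.31 on the log2 scale in MTO100 and by 3.28 in MTO101, an interaction of -1.97 ± 0.31 (SE, adjusted p = 0.0106). This call was lost without the pool 1 library of MTO100 without EGF or without either MTO101 library without EGF (adjusted p = 0.0618, 0.0797 and 0.0571). Ccne2 and Cdkn2b had interactions of -1.01 and 0.91, neither called (adjusted p = 0.296 and 0.326).

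In full medium the genotypes were compared on the means of each line, 2 lines against 2. Limma-trend called none of 13823 genes (0.00%), with 1469 at an unadjusted p under 0.05, and 3 of the 10 genes were among these: Ccnd2, Cdkn1c and Cdkn2b. Ccnd2 stood at 3572 to 6722 normalised reads in AKP and 889 to 1614 in APT, a log2 difference of 2.19 ± 0.34 (SE, adjusted p = 0.245). Cdkn1c stood at 441 to 541 in AKP and 1086 to 2337 in APT, a difference of -1.78 ± 0.39 (adjusted p = 0.315). Cdkn2b stood at 323 to 698 in AKP and 168 to 304 in APT, a difference of 1.03 ± 0.29 (adjusted p = 0.368), with the lowest AKP library just above the highest APT library. Counting the 8 libraries as separate replicates, which treats pools of 1 line as independent, 927 genes were called, Ccnd2 and Cdkn1c among them.

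Around these genes, the rest of the G1/S machinery was read from lists chosen with earlier results known, and the genes named are those with the smallest p. Their counts stand beside the 52.6% of all tested genes called with TGF-beta and the 48.5% without EGF. Of 16 proliferation genes 15 fell with TGF-beta (median -1.38) and 16 without EGF (median -1.84), with the replication helicase subunit Mcm5 at -2.17 ± 0.23 and -2.64 ± 0.23 and the mitotic kinase Plk1 at -1.97 ± 0.22 and -2.24 ± 0.18 (log2 change ± SE). Of 13 pocket proteins and E2F and DP factors 1 rose and 7 fell with TGF-beta, and 2 rose and 8 fell without EGF. E2f2, an activating E2F, fell in both (-2.67 ± 0.22 and -1.17 ± 0.20), as did the repressor E2f8 (-1.03 ± 0.20 and -1.61 ± 0.19). The retinoblastoma gene Rb1 fell with TGF-beta (-0.63 ± 0.17, adjusted p = 0.00885) and rose without EGF (0.62 ± 0.19, adjusted p = 0.0201), and the difference of -1.25 ± 0.23 was called (adjusted p = 0.00124).

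Of 6 G1 kinase and CDK-activating kinase genes, 2 were called in each medium. None was called in the difference of the responses by limma-trend, where 22.2% of all tested genes were, with 1 at an unadjusted p under 0.05 (Cdk2, 0.60, adjusted p = 0.107). Cdk7 was at 0.49 ± 0.16 with TGF-beta, called, and 0.40 ± 0.16 without EGF, not called, and Cdk6 at -0.57 ± 0.17, called, and -0.51 ± 0.24, not called. Cdk2 was at -0.29 ± 0.21 with TGF-beta, not called, and -0.89 ± 0.15 without EGF, called, and Cdk4 at -0.24 ± 0.18, not called, and -0.72 ± 0.18, called. Among 9 genes of turnover and activation at G1/S, 2 rose and 3 fell with TGF-beta and 2 rose and 4 fell without EGF. Of all tested genes, 52.6% were called with TGF-beta and 48.5% without EGF, and 9 genes are too few to compare with these shares. Skp2, which marks Cdkn1b protein for destruction, fell in both (-1.37 ± 0.19 and -1.51 ± 0.26), and Fbxw7, which does so for cyclin E protein, rose in both (1.12 ± 0.23 and 0.67 ± 0.21). Of the other 2 INK4 genes, Cdkn2a rose with TGF-beta (0.71 ± 0.22, adjusted p = 0.0202) and fell without EGF (-0.97 ± 0.22, adjusted p = 0.00443), and Cdkn2d was at -0.53 (adjusted p = 0.0901) and -0.45 (adjusted p = 0.242), not called. The count table does not separate the products of Cdkn2a, one of which is no INK4 inhibitor.

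Markers of other cells moved with the media. Of the 6 Paneth and goblet markers all 4 tested fell in TGF-beta medium, where their summed level was 187 to 339 normalised reads beside 424 to 12373 in full medium. By line, the sum went from 562 and 424 to 187 and 292 in MTO54 and from 12373 and 9912 to 280 and 339 in MTO220, so most of the fall was in MTO220. Without EGF 4 of the 6 markers rose, and the sum went from 1568 to 3761 up to 4613 to 13870. Of 5 enteroendocrine markers 4 were tested without EGF and all rose (sums of 104 to 243 and 1310.2 to 2129.9), and none passed the filter in AKP lines, where sums reached 1095 in MTO220 full medium and 8.61 at most in TGF-beta medium. Fibroblast markers summed to 13.8 to 26.8 and 140.0 to 203 in the AKP media and 17.0 to 157 and 105 to 513 in the APT media, with 2 of 2 tested markers higher in each. Immune markers summed to 31.0 to 149 over all libraries, with Cd3e at 0 in all 8 AKP libraries, and 1 of 2 tested rose without EGF while the 1 tested with TGF-beta was not called. Endothelial markers summed to 55.2 to 1254 and 33.3 to 50.0 in the AKP media, and to 156 to 301 and 267 to 873 in the APT media, with 1 of 2 tested higher. The AKP range was split by line, from 613 and 1254 to 50.0 and 46.1 in MTO54 and from 55.2 and 68.4 to 40.9 and 33.3 in MTO220, and Cdh5, the 1 marker tested there, was not called jointly but had an interaction of 6.71 (adjusted p = 0.000179). Absorptive markers reached at most 54.1, with Fabp1 or Apoa4 at 0 in each group, and the 1 tested was not called. The 8 intestinal epithelial markers summed to 96073 to 230135, with 2 higher and 3 lower with TGF-beta and 2 lower without EGF. The adhesion gene Cdh17 was at -2.59 and -2.01 in the 2 comparisons and the intestinal transcription factor Cdx2 at -1.59 and -1.28, all called. Epcam, 1 of the 2 higher with TGF-beta, was at 0.87, and the median of the 8 was 0.14. By the limma-trend interaction, Cdx2 responded lower in MTO220 than in MTO54 (-1.77, adjusted p = 0.00194). Its response was also lower in MTO101 than in MTO100 (-1.65, adjusted p = 0.0239). The TGF-beta response of Cdh17 was higher in MTO220 than in MTO54 (adjusted p = 0.0314), and its interaction without EGF was not called. The part of these cells in the results on the 10 genes was not tested.

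The genes most like 3 of the members were taken as those with the highest Pearson correlation of log2 values over the 16 libraries, among 10596 genes at a mean of at least 100 normalised reads. These libraries share 4 lines and 3 media, so the values are a description. Closest to Cdkn1a were Spred3 (0.948), Rem2 (0.943) and Tnnt2 (0.942), and closest to Cdkn2b were Gadd45a (0.979), Zfand2a (0.968) and Ctsl (0.964). Ccnd1 was followed most closely by Emp1 (0.957), Kirrel (0.943) and Camkk2 (0.939).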

How the data were processed

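Poly(A) RNA-seq libraries from a kit that does not mark strand, per the labels' protocols, were processed by the authors with STAR 2.3.0e and DESeq2 1.22.1 on build mm10, per the submitters' processing notes. The deposited values are a signal per Entrez gene, reads divided by a size factor (0.868 to 1.16). Multiplied back, 100% of values were whole to within 0.001. RefSeq symbols matched 25275 of 27179 rows.

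Limma 3.58.1 in R 4.3.3 (limma-trend, robust) was run on log2(value + 1), keeping genes that reached 10 in 4 or more libraries (in 2 or more lines for AKP against APT, which used the mean of each line), with a term for the line, two-sided, with Benjamini-Hochberg adjustment over all tested genes at a threshold of 0.05. Fold changes of low genes are understated on this scale. On the recovered reads edgeR 4.0.16 (quasi-likelihood, TMM) called 7156 genes with TGF-beta and 6915 without EGF, and DESeq2 1.42.0 called 7488 and 7285. Limma-trend, edgeR and DESeq2 were also run on simulated counts, though not for AKP against APT. Few genes were changed there and all had the same spread, unlike in these data, so nothing is concluded from it. Other alternatives were the pseudocount (0.5, 5), the filter, the scaling, the line term, single lines, averaged pools, a replicate block and each library left out.

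Same-numbered libraries of a line share passage and pool by label, which pairs them. Their deviations from the group means correlated over 15087 genes at 0.04 in MTO54, 0.17 in MTO220, 0.17 in MTO100 and 0.13 in MTO101. The MTO54 full-medium library titled replicate 1 was taken as pool 1 from its other labels.

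All 10 genes are named, with up to 4 genes of smallest p per list and comparison and the 3 genes most like each of Cdkn1a, Cdkn2b and Ccnd1. A gene named under 1 comparison is also given its value under another. The members and lists were chosen with earlier results of these data known. Positions are RefSeq's on GRCm38.p6, and exon lengths and overlaps are from GENCODE's mouse annotation of the same assembly.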

Additional observations from a re-analysis of the deposited data

Results flagged for a closer look

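In the 4 full-medium AKP libraries, the pool 2 library of MTO54 lay far from the other 3 for 3 of the 10 genes by Dixon's criterion at 95%. It held 3358.5 normalised reads of Cdkn1a where the others held 466.7 to 648.7, 540.9 of Cdkn1c where they held 441.2 to 457.5, and 2823.5 of Ccnd3 where they held 1631.6 to 1680.6. These were 3 of 40 combinations of gene and group looked at. The criterion's rate of about 1 in 20 is for independent values of a single group. Here the groups mix lines and all 3 flags came from the same library, so that rate does not apply.

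Lines of a genotype differed in their response for 2 genes, by the interaction of line and medium in limma-trend. The TGF-beta response of MTO220 minus that of MTO54 was 1.75 for Cdkn2b (adjusted p = 0.0276) and -2.21 for Ccnd2 (adjusted p = 0.00358) on the log2 scale. The EGF-withdrawal response of MTO101 minus that of MTO100 was -1.97 for Ccnd2 (adjusted p = 0.0106). Both pools showed the direction in each line.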

How the results depend on the processing

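Among the 10 genes, direction and side of the threshold held under another pseudocount and filter in every comparison. They also held under TMM scaling and edgeR, which were not run for AKP against APT in full medium. Signs turned for values that were not called over both lines: with library totals Ccne1 with TGF-beta was 0.078, Cdkn1b without EGF 0.20 and the Ccnd3 difference -0.064, and in single lines Ccne1 was 0.50 in MTO54, Ccnd2 -0.82 in MTO220, and Cdkn1b 0.14 and Cdkn1a -0.22 in MTO101. Library totals moved the median of all genes from 0.02 to 0.14 with TGF-beta, from 0.08 to 0.31 without EGF and from 0.01 to -0.10 in the difference. With 1 library left out, Ccne1 ranged from -0.26 to 0.12 and Ccnd2 from -0.021 to 0.63 with TGF-beta, and Cdkn1a from -0.19 to 0.29 and Cdkn1b from -0.12 to 0.088 without EGF. The interaction of the AKP lines ranged from -0.24 to 0.39 for Ccnd1, from -0.70 to 0.089 for Ccnd3 and from -0.55 to 0.032 for Ccne2, and that of the APT lines from -0.055 to 0.22 for Ccnd3 and from -0.072 to 0.37 for Ccne1. The Ccnd3 difference between responses ranged from -0.14 to 0.17, and AKP minus APT in full medium from -0.92 to 0.26 for Cdkn1a, from -0.046 to 0.28 for Cdkn1b, from -0.057 to 0.26 for Ccnd1 and from -0.052 to 0.34 for Ccnd3.

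Counts of called genes moved more. TGF-beta gave 3782 in MTO54 alone and 2322 with pools averaged, and EGF withdrawal 4234 with pools averaged, 5 of the 10 genes among them. DESeq2 called 4 of the 10 genes in the interaction of the AKP lines (Cdkn1c and Ccne1 added), and the interaction of the APT lines gave 223 genes with library totals and 640 with DESeq2. With 1 library left out the counts ranged from 5435 to 7734 with TGF-beta (7 to 8 of the 10 genes), from 5000 to 7194 without EGF (7 to 8), from 343 to 2384 (1 to 5) and from 80 to 982 (0 to 1) in the interactions of the AKP and APT lines, from 2452 to 3445 (6 to 8) in the difference of the responses, and stayed at 0 in AKP against APT. With 8 libraries as replicates AKP against APT gave 927 genes and 2 of the 10, and with a replicate block as well 917 and 2. The replicate block left 5 of the 10 genes called in the difference of the responses and changed no other call among the 10 genes. Apart from the construction of settings with fewer samples, the cause of these shifts was not tested. The interactions rest on 2 libraries per line and medium. The lowest value among the 10 genes was 22.8 normalised reads, of Cdkn2c in MTO220 with TGF-beta, where counting error is largest.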

Other observations

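Targets of p53 other than Cdkn1a went in both directions. Of 13 tested of 15, 4 rose and 1 fell with TGF-beta (median log2 change 0.48) and 4 rose and 2 fell without EGF (median 0.26), which is no larger a share than the 52.6% and 48.5% of all genes called. Trp53inp1, a stress gene of cell cycle arrest, rose by 3.85 ± 0.29 and 1.75 ± 0.24 (SE), and Mdm2, the ligase for p53, by 1.02 ± 0.16 and 0.87 ± 0.15. Sesn2, a regulator of mTORC1, fell with TGF-beta (-2.16 ± 0.23), and Phlda3, an inhibitor of AKT, fell without EGF (-1.16 ± 0.30). The response to TGF-beta was higher in MTO220 than in MTO54 for Phlda3, by 2.77 (adjusted p = 0.000613), and for Pmaip1, a pro-apoptotic gene, by 3.27 (adjusted p = 0.0152). Trp53 RNA itself lay at 97.3 to 183 normalised reads in MTO54 and at 1916 to 4207 in MTO220. The part of this in the 2 interactions was not tested.

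Of 13 regulators upstream of the 10 genes, 3 rose and 2 fell with TGF-beta, and 1 rose and 3 fell without EGF, a smaller share than among all genes. The difference of the responses was called for 4 of the 13 and not for 9, beside 22.2% of all tested genes called. Id1, an inhibitor of basic helix-loop-helix factors, rose by 1.20 ± 0.17 with TGF-beta and was at -1.20 ± 0.23 without EGF (adjusted p = 0.00142), and the difference was 2.41 (adjusted p = 4.19e-05). Myc was at -0.94 ± 0.15 without EGF (adjusted p = 0.000548), and its TGF-beta response was lower in MTO220 than in MTO54 by 1.04 on the log2 scale (interaction -1.04, adjusted p = 0.0225). The interaction of the AKP lines was also called by limma-trend for Cdk2 (-1.07, adjusted p = 0.0255) and for 8 of 16 proliferation genes. All 8 were lower in MTO220, with the mitotic kinase Cdk1 at -1.39 (adjusted p = 0.00898). Of all tested genes, 8.20% were called in this interaction, 2.72% as lower in MTO220.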
